A study of Mus musculus with 4 samples.

Results

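Among the quiescent muscle stem cells of extraocular muscle (EOM) and tibialis anterior (TA), a small set of cells carried several transcripts of the Ifit genes, which code for antiviral proteins that bind foreign RNA and are induced by interferon. Cells were chosen by their Ifit counts: a responder held 3 or more summed unique molecular identifiers (UMIs, counted RNA molecules) of Ifit1, Ifit2, Ifit3 and Ifit3b, and a cell with 0 of them belonged to the others. Responders numbered 264 of the 6673 quiescent cells with 2000 or more UMIs and a mitochondrial share of 10% or less, in a series of 23170 barcodes. EOM held 208 responders and 3094 others, and TA held 56 responders and 2791 others, while 351 EOM cells and 173 TA cells with 1 or 2 Ifit UMIs fell between the classes. Ifit levels are therefore a description, and so are the levels of other genes in these cells, since a cell was picked for its response.

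All cells came from Tg:Pax7-nGFP mice aged 2 to 4 months, in which nuclear GFP follows the stem cell factor Pax7, and were sorted by their GFP. Quiescent EOM and quiescent TA cells went straight to droplet sequencing on the 10x Genomics platform, whereas activated EOM and activated TA cells were first cultured for 4 days on Matrigel at 3% oxygen. The EOM move the eye, and the TA is a muscle of the lower leg. There was 1 library for each of the 4 groups, and the number of animals behind a library is not given in the sources used here. With no replicate, no test was made, no p-value is given, and each interval is a 95% interval for counting error alone.

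Interferons are secreted proteins, and cells make those of type I on sensing foreign nucleic acid. Type I interferon binds the receptor formed by Ifnar1 and Ifnar2, and the kinases Jak1 and Tyk2 then activate a complex of STAT proteins and Irf9 that binds the interferon-stimulated response element (ISRE) in target promoters. Interferon gamma acts through Ifngr1 and Ifngr2 and activates STAT pairs that bind the gamma-activated site (GAS). Their targets include antiviral effectors, GTPases that attack the vacuoles of intracellular microbes, the class I antigen presentation machinery, chemokines such as Cxcl10 and the T cell inhibitor Cd274 (PD-L1).

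The 4 genes that defined the cells lie together on chromosome 19 of mm10 (GRCm38, GENCODE vM21): Ifit2 at chr19:34550694-34576419, Ifit3 at chr19:34583531-34588731, Ifit3b at chr19:34607970-34613401 and Ifit1 at chr19:34640871-34650009, all on the plus strand. The 250 bases before the RefSeq start site are shown on the gene's own strand (RefSeq, GRCm38.p6) for 7 genes: Ifit1, Ifit3 and Ifit3b, which chose the cells, and Isg15, Cxcl10, Gbp2 and Oasl2, which did not and on which the results turn, with each ISRE match in capitals. The match was spelled GAAANNGAAA or TTTCNNTTTC, so that both strands were read.
Ifit1, chr19:34640639-34640888, plus strand: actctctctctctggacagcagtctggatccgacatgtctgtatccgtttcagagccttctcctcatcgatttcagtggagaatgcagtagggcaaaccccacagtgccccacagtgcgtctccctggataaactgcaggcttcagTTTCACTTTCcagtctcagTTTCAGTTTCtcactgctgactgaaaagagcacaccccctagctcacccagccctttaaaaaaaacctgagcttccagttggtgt
Ifit3, chr19:34583279-34583528, plus strand: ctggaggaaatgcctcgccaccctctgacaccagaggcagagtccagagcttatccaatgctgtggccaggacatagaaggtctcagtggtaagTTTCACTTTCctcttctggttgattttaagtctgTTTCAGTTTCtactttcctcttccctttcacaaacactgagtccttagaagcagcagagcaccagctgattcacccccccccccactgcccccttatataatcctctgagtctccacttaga
Ifit3b, chr19:34607707-34607956, plus strand: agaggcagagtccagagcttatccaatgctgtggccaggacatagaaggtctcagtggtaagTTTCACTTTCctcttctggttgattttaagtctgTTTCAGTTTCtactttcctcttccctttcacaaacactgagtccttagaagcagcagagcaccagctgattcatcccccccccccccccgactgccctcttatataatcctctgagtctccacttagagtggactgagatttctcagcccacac
Isg15, chr4:156200819-156201068, minus strand: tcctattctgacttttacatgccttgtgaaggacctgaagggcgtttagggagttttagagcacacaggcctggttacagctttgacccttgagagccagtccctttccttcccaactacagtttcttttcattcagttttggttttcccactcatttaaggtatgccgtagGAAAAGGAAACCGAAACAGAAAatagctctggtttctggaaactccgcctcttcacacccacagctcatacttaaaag
Cxcl10, chr5:92348890-92349139, minus strand: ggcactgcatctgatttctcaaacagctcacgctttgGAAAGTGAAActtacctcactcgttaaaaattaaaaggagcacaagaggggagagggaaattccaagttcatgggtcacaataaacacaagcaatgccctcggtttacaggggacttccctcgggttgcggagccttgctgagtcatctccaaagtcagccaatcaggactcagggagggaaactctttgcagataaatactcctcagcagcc
Gbp2, chr3:142620413-142620662, plus strand: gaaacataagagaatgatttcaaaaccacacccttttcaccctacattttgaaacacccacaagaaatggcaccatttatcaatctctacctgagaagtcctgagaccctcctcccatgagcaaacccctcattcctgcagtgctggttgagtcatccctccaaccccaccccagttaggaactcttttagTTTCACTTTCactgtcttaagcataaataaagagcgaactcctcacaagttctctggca
Oasl2, chr5:114896684-114896933, plus strand: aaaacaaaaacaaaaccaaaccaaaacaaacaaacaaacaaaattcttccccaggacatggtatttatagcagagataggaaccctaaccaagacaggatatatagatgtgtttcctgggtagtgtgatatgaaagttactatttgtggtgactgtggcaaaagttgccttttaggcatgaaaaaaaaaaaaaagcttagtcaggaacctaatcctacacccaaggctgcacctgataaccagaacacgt
In Ifit1 the matches began 104 and 85 bases before the start site, in Ifit3 156 and 122 bases, and in Ifit3b 188 and 154 bases before it. In Isg15, 3 matches that overlap one another began 78, 72 and 66 bases before the start. Cxcl10 had 1 match 213 bases and Gbp2 1 match 59 bases before the start, and Oasl2 had none in this window.

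Ifit transcripts were unevenly spread over the cells. In quiescent EOM, 60 cells sat just inside the threshold with exactly 3 Ifit UMIs and 86 just outside it with exactly 2, and the highest cell had 60. In quiescent TA, 17 cells had exactly 3, 30 had exactly 2, and the highest had 42. At least 20 Ifit UMIs were counted in 22 EOM cells and in 3 TA cells. Responders made up 6.16% of the UMIs of all passing EOM cells but 81.0% of their Ifit UMIs, and 1.99% and 68.6% in TA. Responders were chosen by these UMIs, so their share of them is partly set by the rule. As a description, most Ifit UMIs lay in few cells, with a tail of cells at 1 or 2.

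**Figure D1:**
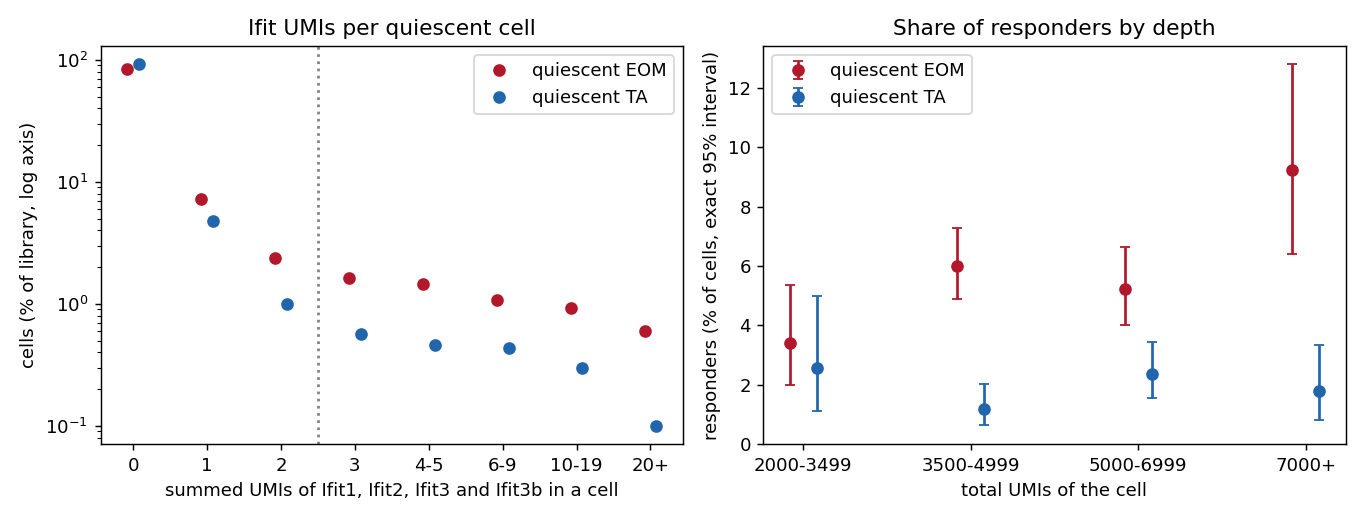
Left, the percent of passing cells of quiescent EOM (red) and quiescent TA (blue) by their summed Ifit UMIs, on a log axis, with the dotted line at the responder threshold. Right, the percent of responders with its exact 95% interval by the total UMIs of the cell. EOM points lie above TA points in every class with at least 1 Ifit UMI and in every depth class, with overlapping intervals in the shallowest depth class.

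As a description, each Ifit gene was also read in cells chosen on the other 3. Ifit1 was then at 1148 CPM (UMIs per 1000000 UMIs of the class) in EOM responders and 39.8 CPM in EOM others, a ratio of 28.8 (25.6 to 32.5). In TA it was at 946 CPM in responders and 11.8 CPM in others, a ratio of 80.5 (62.1 to 104). Ifit3 was 43.1-fold higher (35.1 to 53.1) in EOM responders and 96.7-fold higher (71.4 to 132) in TA responders. Ifit3b was 65.2-fold higher (42.0 to 105) in EOM and 19.4-fold higher (7.88 to 43.4) in TA. Ifit2 was 9.56-fold higher in EOM and 10.1-fold higher in TA, where responders had 8 UMIs and 37 lay in cells with 0 UMIs of the other 3 genes. Ifit3 and Ifit3b are close copies, and how reads were divided between them is uncertain, so their ratios here are not independent of the rule.

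Responders were 5.69% of quiescent EOM cells (exact interval 4.96 to 6.50) and 1.85% of quiescent TA cells (1.40 to 2.40), a ratio of 3.07 (2.28 to 4.20) for counting error. The EOM share was the higher one in every depth class. Among cells with 7000 or more UMIs it was 9.25% in EOM and 1.78% in TA, and among those with fewer than 3500 UMIs it was 3.39% in EOM and 2.56% in TA. After each cell was thinned to 2000 UMIs, 92 EOM cells (2.52%) and 23 TA cells (0.762%) still held 3 or more Ifit UMIs. Without cells that carry markers of another cell type, described below, the shares were 5.66% in EOM and 1.67% in TA. With 1 library per muscle, a difference between muscles and a difference between these libraries or animals cannot be told apart.

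Median depth and median mitochondrial share differed little between responders and others, although the share of responders varied between depth classes as given above. Median UMIs were 4923.5 in EOM responders and 4686.5 in EOM others, and 5214 in TA responders and 5105 in TA others. The median share of mitochondrial UMIs was 6.93% in both EOM classes, and 7.68% in TA responders against 7.94% in TA others. In TA, responders were 3.88% of cells below 6% mitochondrial UMIs, 1.56% of those at 6 to 8% and 1.80% of those at 8 to 10%. In EOM these shares were 6.01%, 5.59% and 5.58%. Cells ranked as likely doublets by Scrublet made up 2.40% of EOM responders and 3.88% of EOM others, and 1.79% of TA responders and 5.16% of TA others. The quiescent libraries shared 6 barcodes with each other, and no responder was among them.

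In the cultured cells the same threshold found 15 cells in activated EOM, which is 0.251% of 5967, and 11 in activated TA, which is 0.244% of 4511, at a median depth of 21699 and 23659 UMIs. Thinned to 2000 UMIs, 0 cells of either activated library reached 3, a count that leaves room for a share of 0.0503% among activated EOM cells and of 0.0665% among those of activated TA. After thinning, 1 or more Ifit UMIs remained in 9.42% of the cells in quiescent EOM and 4.24% in quiescent TA, but in 1.56% in activated EOM and 1.51% in activated TA. No cell type known to lack Ifit transcripts was present in number, so the part of free RNA in the single-UMI cells was not tested.

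The responders were checked against the markers of muscle stem cells and of the other cells a GFP sort could hold. All 12 stem cell markers had UMIs in the responders of both muscles, with a median of 24 summed UMIs in an EOM responder against 23 in an EOM other, and 29.5 in a TA responder against 27 in a TA other. Pax7 itself was at 274 CPM in EOM responders and 290 CPM in EOM others (ratio 0.942, 0.837 to 1.06), and at 430 CPM in TA responders and 384 CPM in TA others (1.12, 0.940 to 1.32). Among unmarked cells, as defined below, Pax7 was at 277 CPM in EOM responders and 291 CPM in EOM others. In unmarked TA cells it was higher in responders, at 502 CPM from 139 UMIs, than in others, at 385 CPM. The list for plasmacytoid dendritic cells, which make much interferon, summed to 617 CPM in EOM responders and 485 CPM in EOM others, and to 1072 CPM in TA responders and 423 CPM in TA others, but its Siglech and Klk1 were at 0 in responders and the rest (Bst2, Irf8, Tcf4) are not particular to those cells. Markers of T and NK cells and of neutrophils were at 0 in the responders of both muscles. The leukocyte gene Ptprc and the macrophage genes C1qa, C1qb, C1qc, Lyz2, Adgre1, Csf1r and Tyrobp were also at 0 there. The whole macrophage list summed to 27.5 CPM in EOM responders and 8.69 CPM in EOM others, or 10.8 and 7.09 CPM among unmarked cells as defined below, with 6 of its 14 genes seen in EOM responders. In TA it summed to 3.05 CPM in responders, from 1 of the 14 genes, and 23.8 CPM in others. By these markers the cells were muscle stem cells, with the exceptions that follow.

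In TA, 6 of the 56 responders held 10 or more summed UMIs of the endothelial markers (Pecam1, Cdh5, Kdr, Flt1, Emcn, Egfl7, Ly6c1, Esam, Tie1, Cldn5), with up to 166 in 1 cell. In the whole TA library 11 passing cells did so, and 6 of the 11 (54.5%, exact interval 23.4 to 83.3) were responders. All 10 endothelial markers were present, at a summed 1325 CPM in TA responders and 31.7 CPM in TA others. In EOM no cell reached 10, the list summed to 9.77 CPM in responders and 7.06 CPM in others, and 7 of the 10 markers were at 0 in responders. EOM had 1 responder with 95.4% of the responders' 306 UMIs of Dcn, a fibroblast gene, and 1 with 10 or more UMIs of macrophage list genes. Results are therefore also given without 12 EOM and 18 TA cells, a choice made after these cells were seen. Each held 10 or more UMIs of an endothelial, macrophage, T and NK, B and plasma, neutrophil, glial, fibroblast or mural list. The fibroblast list was here cut to Pdgfra, Dcn, Dpt, Lum, Mfap5 and Clec3b, and the mural list to Rgs5, Kcnj8 and Abcc9. This leaves 206 responders and 3084 others in EOM and 50 responders and 2781 others in TA, called the unmarked cells. Erythroid, plasmacytoid dendritic and differentiating muscle markers were not used, and unmarked TA others kept 1018 CPM of erythroid markers. In TA, 4 erythroid markers were lower in responders and are among the lower genes counted below. The median TA other held 0 erythroid UMIs, and 2 TA others held 10 or more.

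Across genes, those at 50 CPM or more in either class were counted, and a gene was called higher or lower at a 2-fold difference. In EOM 51 of 2873 genes (1.78%) were higher and 5 (0.174%) lower in responders, and among unmarked cells 50 (1.74%) were higher and 6 (0.208%) lower. In TA 201 of 3045 genes (6.6%) were higher and 50 (1.64%) lower, and among unmarked cells 92 (3.07%) were higher and 62 (2.07%) lower. With scaling factors by the trimmed mean of M-values, which move the median log2 ratio of all genes in TA from 0.00 to -0.13, the TA split was 166 higher and 84 lower. The TA counts rest on few cells, and 3 UMIs in its responders correspond to 9.14 CPM. The counts are also partly set by the filter, since a gene could be counted through the responders alone. Of the 2664 genes at 50 CPM or more in EOM others, 14 were higher and 5 lower. In TA 34 of 2642 such genes were higher and 50 lower, and among unmarked cells 23 of 2639 were higher and 62 lower. By that count more genes were lower than higher in TA, but there a gene was counted by its level in others alone. With genes at 200 CPM or more in either class, more TA genes were higher than lower.

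In both muscles 42 of the 2612 genes counted in each (1.61%) were higher and 0 were lower or opposite. The 42 were 82.4% of the genes higher in EOM and 20.9% of those higher in TA, and among unmarked cells 43 genes (1.64% of 2617) were 86.0% of those in EOM and 46.7% of those in TA. Some of the 42, such as Oasl2, reached 50 CPM in responders only. Of the 42, 35 belonged to the interferon lists. The other 7, picked out here after their values were seen, were Aftph, Clec2d, F830016B08Rik, Nampt, Rnf213, Tmem140 and Trim12a. Rnf213, a very large ubiquitin ligase, was at 143 CPM in EOM responders against 33.6 CPM in others (4.26-fold, 3.54 to 5.09) and at 134 CPM in TA responders against 29.9 CPM (4.49-fold, 3.21 to 6.12). Most genes higher in EOM responders were thus also higher in TA responders, whereas most genes higher in TA were not among those of EOM.

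**Figure D2:**
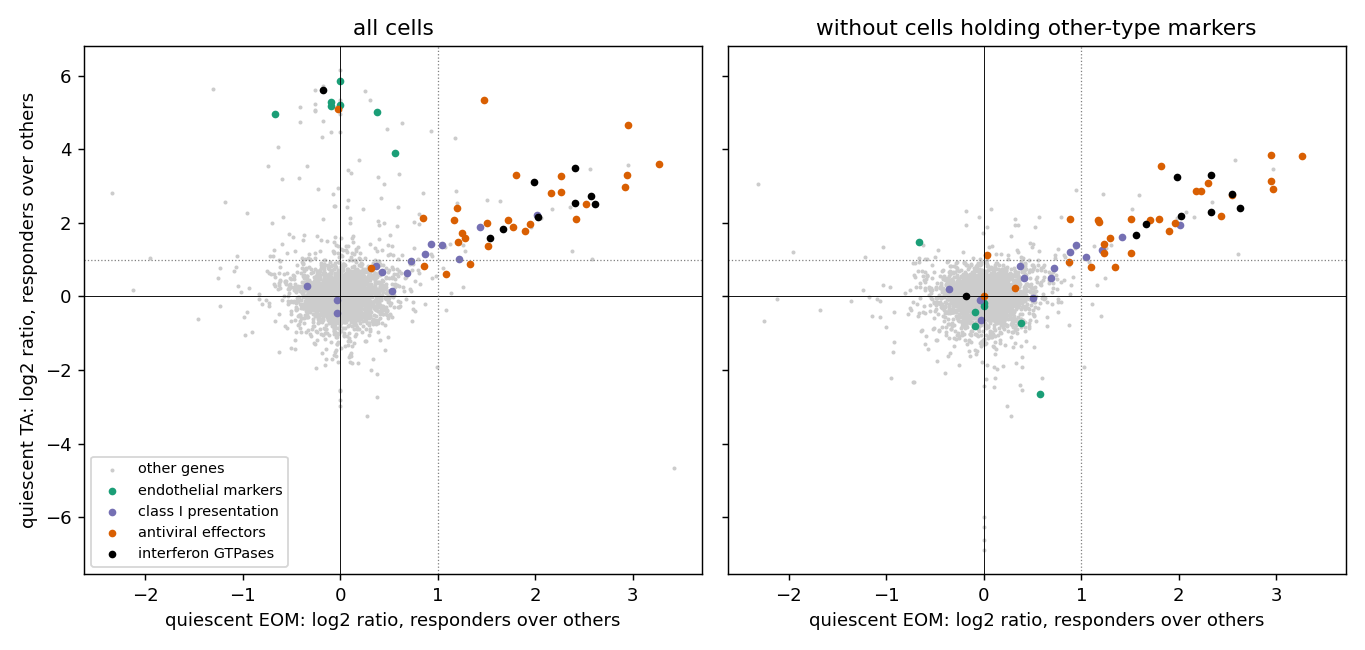
Each point is a gene counted in either muscle, placed by its log2 ratio of CPM + 1 in responders over others, in quiescent EOM (horizontal) and quiescent TA (vertical), with dotted lines at a 2-fold difference. Left, all cells, where endothelial markers (green) lie high in TA alone. Right, unmarked cells, where antiviral effectors (orange) and GTPases (black) stand at the upper right, and the 4 points at the bottom are haemoglobin genes.

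The antiviral effectors, which block viral RNA, protein synthesis or budding, summed to 8097 CPM in EOM responders and 3105 CPM in EOM others over the 67 list members in the files, and to 8963 CPM in TA responders and 2619 CPM in TA others. Of 22 counted in EOM 20 were higher, with a median log2 ratio of 1.75 against 0.02 over all genes counted, and in TA 24 of 28 were higher, with a median of 2.10 against 0.00. Most of them were counted because they reached 50 CPM in responders, so the counts are partly set by the filter: only 4 in each muscle reached it in others, and 2 of these, Isg15 and Ifitm3, were higher. The list, like the others here, excludes the 4 Ifit genes.

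Oasl2, an oligoadenylate synthetase-like protein, had 181 UMIs and 161 CPM in EOM responders against 15.8 CPM in EOM others, 10.2-fold higher (8.34 to 12.4). In TA it was at 177 CPM in responders against 13.6 CPM in others, 13.0-fold higher (9.57 to 17.5). EOM responders, with 6.16% of the UMIs, held 34.7% of the library's Oasl2. Isg15, a ubiquitin-like modifier, was at 622 CPM in EOM responders and 80.0 CPM in others (7.77-fold, 7.07 to 8.54), and at 591 CPM in TA responders and 59.0 CPM in others (10.0-fold, 8.53 to 11.7), which was 7.74-fold among unmarked TA cells. After thinning, 42.8% of EOM responders and 10.7% of EOM others had an Isg15 UMI, and 41.1% of TA responders and 9.06% of TA others. Both genes were high in both muscles, but many responders showed no molecule of them.

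Rsad2 (viperin), which makes a chain-terminating nucleotide, was 8.60-fold higher in EOM responders (65.7 against 7.65 CPM) and 33.5-fold higher in TA responders (104 against 3.09 CPM), or 19.1-fold among unmarked TA cells on 15 UMIs. Rtp4 was 7.86-fold higher in EOM and 8.02-fold higher in TA. Bst2 (tetherin), which holds budding virus at the membrane, was 4.93-fold higher in EOM and 10.1-fold higher in TA. The membrane protein Ifitm3 was at 3978 CPM in EOM responders and 1632 CPM in others (2.44-fold, 2.36 to 2.52) and at 4027 CPM in TA responders and 1347 CPM in others (2.99-fold, 2.83 to 3.16). Xaf1, Parp9, Parp14, Dtx3l, Eif2ak2 (PKR), Helz2, Herc6, Trim25 and Samhd1 were between 2.29-fold and 5.50-fold higher in EOM responders and between 2.65-fold and 7.44-fold higher in TA responders. Zbp1, a sensor of Z-form nucleic acid, was 6.10-fold higher in EOM and 6.17-fold higher in TA.

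The GTPases had the highest median of the interferon lists described. All 8 counted in each muscle were higher, with a median log2 ratio of 2.22 in EOM and 2.53 in TA, and so were all 4 in EOM and all 3 in TA that reached 50 CPM in others. Over the 18 members in the files they summed to 3022 CPM in EOM responders and 707 CPM in EOM others, and to 2763 CPM in TA responders and 461 CPM in TA others. Gbp2, a guanylate-binding protein, was at 750 CPM in EOM responders and 126 CPM in others (5.97-fold, 5.50 to 6.47), and at 478 CPM in TA responders and 71.1 CPM in others (6.72-fold, 5.65 to 7.95). Irgm1, which regulates the immunity-related GTPases, was at 994 CPM in EOM responders and 312 CPM in others (3.18-fold), and at 765 CPM in TA responders and 215 CPM in others (3.56-fold). Iigp1, an immunity-related GTPase, was 5.38-fold higher in EOM responders and 11.4-fold higher in TA responders, or 9.95-fold among unmarked TA cells. Counts can be split between the near copies of these families, and single members are uncertain for that reason.

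**Figure D3:**
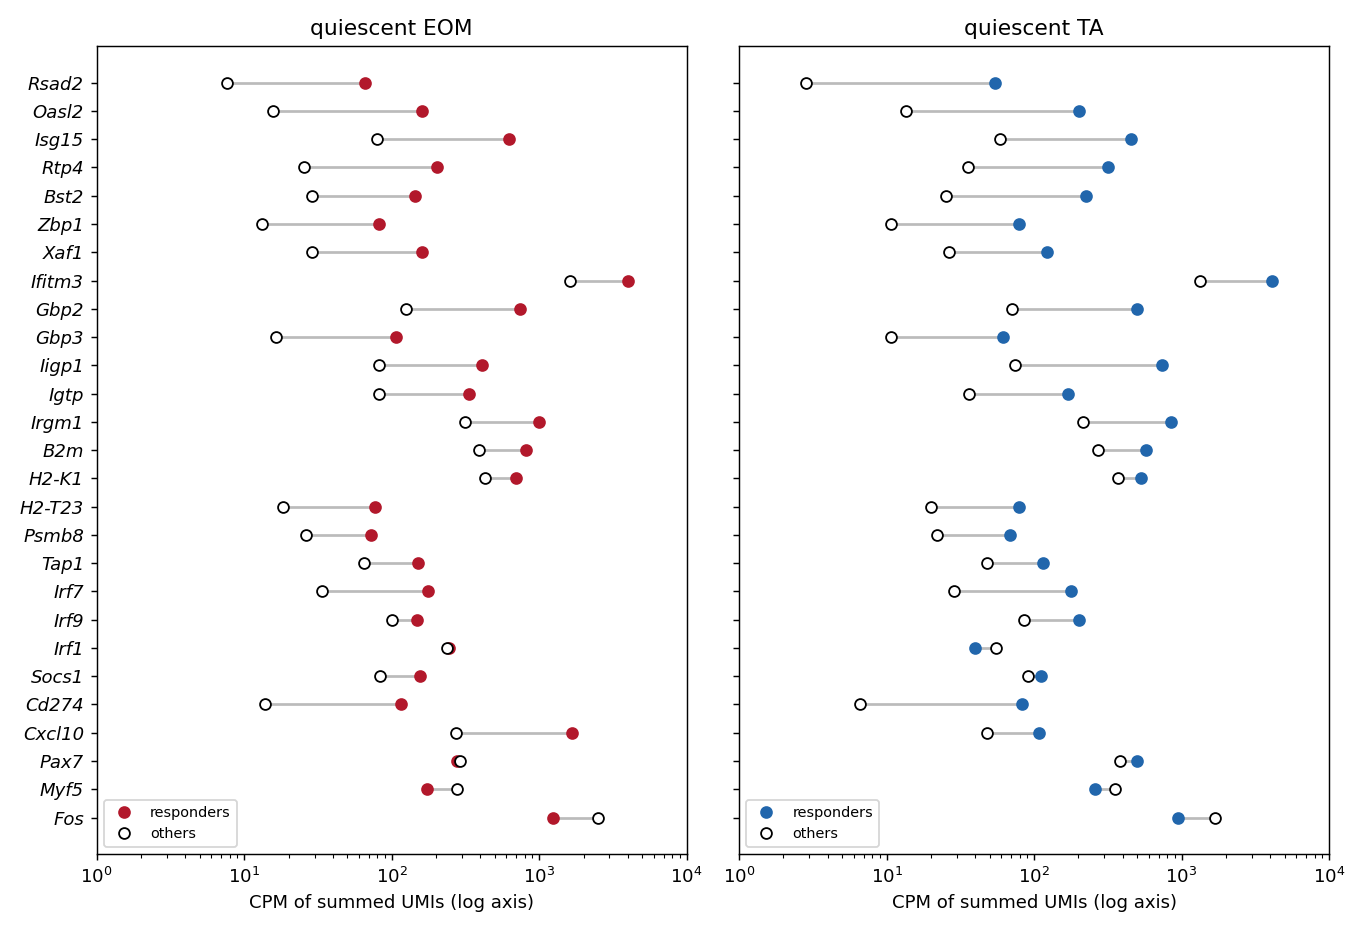
CPM of summed UMIs on a log axis for 27 genes in unmarked responders (filled points) and unmarked others (open points), in quiescent EOM (left) and quiescent TA (right). Antiviral effectors and GTPases, in the upper rows, show filled points to the right in both muscles. Irf1 lies close together in EOM and lower in TA responders, and the summed CPM of Fos is lower in responders of both.

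The class I antigen presentation genes moved less. Of 14 counted in each muscle, 4 were higher in EOM and 6 in TA, with a median log2 ratio of 0.71 in EOM and 0.89 in TA, or 0.81 among unmarked TA cells. Over all genes counted the share higher was 1.78% in EOM and 6.6% in TA. Of the class I genes that reached 50 CPM in others, 2 of 12 in EOM and 2 of 9 in TA were higher, so the other higher ones were counted only through the responders. B2m, the light chain of all class I molecules, was at 809 CPM in EOM responders and 392 CPM in others (2.06-fold, 1.92 to 2.21), and at 731 CPM in TA responders and 276 CPM in others (2.65-fold, 2.32 to 3.02). The peptide transporter Tap1 was 2.35-fold higher in EOM and 2.05-fold higher in TA, and the immunoproteasome subunit Psmb8 was 2.76-fold and 3.83-fold higher in EOM and TA. The non-classical H2-T23 was 4.20-fold higher in EOM and 4.86-fold higher in TA. The classical heavy chains H2-K1 (1.61-fold in EOM, 1.57-fold in TA) and H2-D1 (1.66-fold in EOM, 1.95-fold in TA) stayed under 2-fold. The chaperones Calr and Canx, which the endoplasmic reticulum uses for many proteins, had ratios of 0.975 and 0.789 in EOM, and of 0.928 and 1.21 in TA. None of the 7 class II and regulator genes reached 50 CPM in either muscle.

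The receptors and signalling parts were present in both classes. Of the ligands, Ifnb1, the Ifna genes, Ifnk, Ifne, Ifnl2 and Ifnl3 were at 0 UMIs in responders and others of both muscles, and Ifng had 1 UMI, in a TA other. Ifnar2 was at 110 CPM in EOM responders and 82.0 CPM in others (ratio 1.34, 1.11 to 1.62), and at 48.7 CPM in TA responders and 60.3 CPM in others (0.809, 0.460 to 1.32). Jak1 had a ratio of 1.11 in EOM and 1.07 in TA. Il18, a cytokine also on the ligand list though not an interferon, had 19 UMIs in EOM responders and 164 in EOM others, and 5 in TA responders and 176 in TA others. Receptor and kinase transcripts were thus seen in responders and others alike.

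Of the receptors and JAK-STAT genes, 1 of 11 counted was higher in EOM and 6 of 10 in TA, or 5 of 10 among unmarked TA cells. Over all genes counted the share was 1.78% in EOM and 6.6% in TA, or 3.07% among unmarked TA cells. Of those that reached 50 CPM in others, 0 of 9 were higher in EOM and 4 of 7 in TA, or 3 of 7 among unmarked TA cells. Irf7, the factor that amplifies type I interferon, was higher in both muscles, at 177 CPM in EOM responders against 33.7 CPM in others (5.24-fold, 4.43 to 6.18) and at 158 CPM in TA responders against 28.7 CPM in others (5.52-fold, 4.06 to 7.37). Stat2, a part of the complex that binds the ISRE, was 1.70-fold higher in EOM and 2.51-fold higher in TA, and Irf9 1.46-fold and 2.18-fold in EOM and TA. Irf1, a factor that interferon gamma induces strongly, was at 251 CPM in EOM responders and 236 CPM in others (ratio 1.06, 0.939 to 1.20). In TA its ratio was 2.01 over all cells and 0.722 (0.359 to 1.30) among unmarked cells, where responders had 11 UMIs. The difference between the muscles was not tested.

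The cytosolic RNA sensor Ifih1 (MDA5) was 3.24-fold higher in EOM responders and 6.29-fold higher in TA responders, which held 50 UMIs of it. The related sensor Ddx58 (RIG-I) was at 46.2 CPM in EOM responders and 18.9 CPM in others, and at 48.7 CPM in TA responders and 12.3 CPM in others. The adaptor Myd88 had a ratio of 1.21 in EOM and 1.70 in TA. Of the feedback inhibitors 0 of 7 counted in EOM and 1 of 6 in TA were higher. Over all genes counted the share higher was 1.78% in EOM and 6.6% in TA, so a list this short would hold few such genes. Socs1 had a ratio of 1.99 (1.70 to 2.32) in EOM and 1.47 (1.06 to 1.98) in TA, and Socs3 0.894 and 0.792. The TA gene was Cish, at 97.5 CPM in responders and 31.9 CPM in others (3.06-fold), against a ratio of 1.01 in EOM. Cish was counted in TA only through the responders, and 0 of the 5 feedback inhibitors at 50 CPM in TA others were higher. Usp18, which removes Isg15 from proteins and blocks the type I receptor, stayed under 50 CPM and is named, like Ddx58, after its values were seen: it had 21 UMIs in EOM responders against 25 in the far more numerous EOM others (18.6 against 1.63 CPM), and 7 UMIs in TA responders against 31 in TA others (21.3 against 2.04 CPM).

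Cd274 was at 114 CPM in EOM responders and 13.8 CPM in others (8.24-fold, 6.57 to 10.3), and at 91.4 CPM in TA responders and 6.71 CPM in others (13.6-fold, 8.74 to 20.6). It was found in 50 of 208 EOM responders and 15 of 56 TA responders. Of its list of surface ligands, 1 of 5 genes counted was higher in EOM and 2 of 6 in TA. Over all genes counted the share higher was 1.78% in EOM and 6.6% in TA. Of the 4 list genes that reached 50 CPM in others in each muscle, 0 were higher. The higher ones were thus counted only through the responders. The other TA gene was Lgals9 (galectin-9), at 23.1 CPM in EOM responders and 12.4 CPM in others (1.87-fold, 1.19 to 2.83), and at 88.3 CPM in TA responders and 19.3 CPM in others (4.58-fold, 3.01 to 6.72). Cd47 had ratios of 0.977 in EOM and 0.929 in TA, and Cd200 of 1.28 in EOM and 1.37 in TA.

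Cxcl10, the chemokine that draws T cells through Cxcr3, separated the muscles. It was at 1650 CPM in EOM responders and 275 CPM in EOM others (6.0-fold, 5.67 to 6.33), and at 97.5 CPM in TA responders and 47.6 CPM in TA others (2.05-fold, 1.39 to 2.92). Among unmarked cells, 66 of 206 EOM responders and 467 of 3084 EOM others held at least 1 Cxcl10 UMI, and 10 of 50 TA responders and 134 of 2781 TA others. At least 10 UMIs were held by 35 EOM responders and 98 EOM others, and by 0 TA responders and 23 TA others. Most Cxcl10 molecules lay outside the responders: 1856 UMIs in EOM responders against 4160 in EOM others, and 30 in TA responders against 723 in TA others. Cxcl10 was thus high in some responders of EOM, and also in cells of both muscles without any Ifit UMI.

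Of the chemokine list, 2 of 4 genes counted were higher in EOM and 6 of 7 in TA, several of them from few cells. Over all genes counted the share was 1.78% in EOM and 6.6% in TA. All 4 in EOM reached 50 CPM in others, and of the 4 in TA that did so 3 were higher. Ccl2, which draws monocytes, was at 502 CPM in EOM responders and 335 CPM in others, with 61 of the responders holding it, and was 3.82-fold higher (3.19 to 4.54) in TA, where 10 responders held it and 1 cell 43.5% of its UMIs. Cxcl12, a chemokine that retains stem cells in their niche, had a ratio of 0.767 in EOM and 3.24 in TA, or 1.49 among unmarked TA cells. Ccl7, another monocyte attractant, was 2.31-fold higher in EOM responders and 5.94-fold higher in TA responders, where 1 cell held 75.6% of its UMIs. Cxcl5, a neutrophil attractant, was 4.45-fold higher in TA responders, where 1 cell held 89.7% of its UMIs. Without that cell its log2 ratio was -1.07. Cxcl2 was 0.161-fold in EOM, from 4 UMIs in responders, and 7.22-fold in TA, where 4 responders held it. Cxcl1 was seen more widely, in 102 of 208 EOM responders and 36 of 56 TA responders, with ratios of 1.34 in EOM and 1.36 in TA.

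The cells between the classes were graded. Among unmarked EOM cells with 0, 1, 2, 3 to 5 and 6 or more Ifit UMIs, the antiviral effectors summed to 3097, 4458, 5297, 6918 and 9482 CPM. In TA they summed to 2601, 4181, 5858, 6161 and 11124 CPM. The GTPases summed to 707, 1322, 1766, 2270 and 3751 CPM in EOM and 455, 900, 1605, 1894 and 3464 CPM in TA. Class I presentation was at 2812 CPM in EOM cells with 0 Ifit UMIs and 4797 CPM in those with 6 or more, and at 2353 and 4019 CPM in TA. The levels of these lists were higher already at 1 Ifit UMI than at 0.

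**Figure D4:**
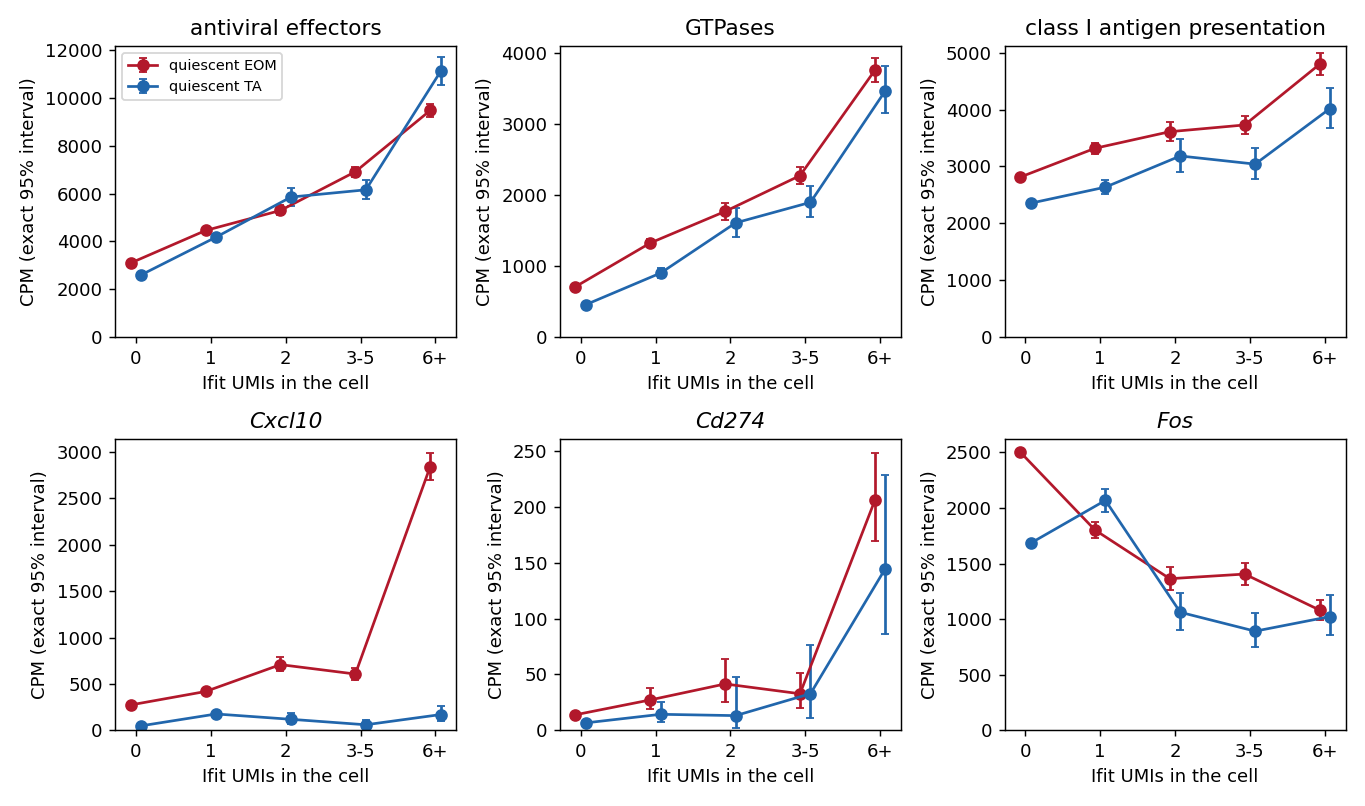
Summed CPM with exact 95% intervals for 3 gene lists and for Cxcl10, Cd274 and Fos, in unmarked cells of quiescent EOM (red) and quiescent TA (blue) with 0, 1, 2, 3 to 5 and 6 or more Ifit UMIs. The antiviral and GTPase lists are higher in each further class, Cxcl10 reaches 2844 CPM in the top EOM class and 169 CPM in the top TA class, and Fos is lower in the top class than at 0 Ifit UMIs in both muscles.

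Per cell, the spread within a class was wide. Antiviral effectors had a median of 74.9 UMIs per 10000 in EOM responders (8.24 to 245, lowest to highest) and 26.7 in EOM others (0 to 165). In TA the median was 75.8 (13.4 to 461) in responders and 22.4 (0 to 156) in others. GTPases had a median of 24.0 in EOM responders and 3.70 in others, and 21.5 in TA responders and 2.18 in others. GTPase UMIs were at 0 in 4 of 206 EOM responders and 835 of 3084 EOM others, and in 4 of 50 TA responders and 1000 of 2781 TA others. The classes overlapped in each measure, since some others had high values.

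No quiescence list gene counted was 2-fold apart over all cells, but Myf5 and Myod1 had ratios below 1 in both muscles. Of the quiescence list, 0 of 24 genes counted in EOM and 0 of 22 in TA were 2-fold apart, with a median log2 ratio of -0.03 in EOM and 0.09 in TA. Over all genes counted, 1.78% were higher and 0.174% lower in EOM, and 6.6% and 1.64% in TA. A list this short would thus hold few such genes. Among unmarked TA cells 1 of 25 was lower. The TA median falls below 0 with scaling factors by the trimmed mean of M-values. Cd34 had ratios of 0.883 in EOM and 0.820 in TA, or 0.547 (0.298 to 0.920) among unmarked TA cells, where responders had 14 UMIs. Calcr, a receptor that keeps the cells quiescent, had ratios of 1.09 in EOM and 0.563 in TA from 10 UMIs. Myf5, a myogenic determination factor, was at 173 CPM in EOM responders and 277 CPM in others (0.626, 0.540 to 0.723), and at 222 CPM in TA responders and 355 CPM in others (0.627, 0.491 to 0.790). Myod1 had ratios of 0.643 (0.527 to 0.778) in EOM and 0.714 (0.632 to 0.803) in TA. The proliferation marker Mki67 had 4 UMIs in EOM responders and 1 in TA responders.

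Immediate early genes follow cell stress and growth signals within minutes. Their median log2 ratio was -0.39 in EOM, with 2 of 22 lower and 0 higher, and 0.22 in TA, with 3 higher and 0 lower. Over all genes counted, 1.78% were higher and 0.174% lower in EOM, and 6.6% and 1.64% in TA. Of the 22 list genes counted in each muscle, 6 had a log2 ratio above 0 in EOM and 14 in TA, or 10 among unmarked TA cells. Among unmarked cells the median was -0.40 in EOM, with 3 lower, and -0.09 in TA, with 0 higher and 0 lower, so the TA genes called higher moved with the marked cells. Fos, Egr2 and Nr4a1 were below 1 in both muscles. Fos was at 1286 CPM in EOM responders and 2505 CPM in others (0.513, 0.487 to 0.541), and at 1261 CPM in TA responders and 1692 CPM in others (0.746, 0.675 to 0.822), or 0.565 among unmarked TA cells. After thinning, 52.9% of EOM responders and 61.2% of EOM others had a Fos UMI. In TA the direction was the opposite, with 62.5% of responders and 46.7% of others, so there only the summed level of Fos was lower. Egr2 had a ratio of 0.417 in EOM. In TA its ratio was 0.829 (0.426 to 1.46), from 12 UMIs in responders, and neither class reached 50 CPM. Nr4a1 had a ratio of 0.499 in EOM and 0.672 in TA. The 5 genes lower in EOM also included the BMP target Id1 (0.461), the kinase Pim3 (0.472) and Rasl11a (0.487). In TA, Id1 had a ratio of 1.64 over all cells and 0.925 among unmarked cells, and Pim3 1.73 and 0.949.

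Zfp36l2, which promotes mRNA decay, was near the threshold in both muscles, at 139 CPM in EOM responders against 262 CPM in others (0.531, 0.450 to 0.623) and at 122 CPM in TA responders against 240 CPM in others (0.507, 0.362 to 0.692). The lowest ratios in TA came from few molecules. The amino acid transporter Slc7a5 had 7 UMIs in TA responders (ratio 0.268, 0.107 to 0.553, against 0.896 in EOM), and Chac1, a glutathione-degrading enzyme of the amino acid stress response, had 5 (0.274, against 1.14 in EOM). Of the amino acid stress list 3 of 7 genes counted in TA were lower, or 2 of 8 among unmarked TA cells, and 0 of 6 in EOM. Over all genes counted the share lower was 1.64% in TA, or 2.07% among unmarked TA cells, and 0.174% in EOM. The NF-kB targets, which other inflammatory signals induce, had 0 of 11 genes counted 2-fold apart in EOM and 0 of 9 in TA. Their median log2 ratios were 0.31 in EOM and 0.32 in TA. The share higher over all genes counted was 1.78% in EOM and 6.6% in TA, so a list this short would hold few such genes.

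The 12 largest ratios in TA came from the cells with endothelial markers. Fabp4, a fatty acid carrier of capillary endothelium, was at 2586 CPM in TA responders and 41.7 CPM in others (62.0-fold), and all 849 of its responder UMIs came from 6 cells. Flt1, a VEGF receptor, was 72.0-fold higher, also from 6 cells. Among unmarked responders Fabp4, Flt1, Kdr, Ctla2a, Gpihbp1, Apold1, Gimap6, Fmo2, Sult1a1, Gbp4 and Mndal had 0 UMIs and Tm4sf1 had 1. Slfn5, an interferon-induced gene, was 43.7-fold higher over all TA cells but had 1 UMI among unmarked responders. In EOM, 11 of the 12 largest ratios by the naming rule, which leaves out unnamed gene models, were of interferon-list genes, and the other was Dcn, whose log2 ratio was -0.37 among unmarked cells. The TA excess of 201 higher genes over 92 moved with these few cells.

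Responders were not spread evenly over clusters made without the interferon lists and the 4 Ifit genes. In EOM, responders were 13.6% (9.63 to 18.4) of cluster 4, whose leading genes included the chemokines Ccl11 and Cxcl2 but also Ifit1 and Ifit3, and 8.79% (6.53 to 11.5) of cluster 5, led by Dcn, Mgp and Il6. They were 1.83% (1.05 to 2.96) of cluster 7, led by Fos, Nr4a1 and Egr1. In TA the Fos-led cluster 5 held 0 responders of 266 cells, a count that leaves room for a share of 1.13%, and cluster 6, led by Npy and Cyp26a1 but also with Ifit3 among its leading genes, held 2.75% (1.27 to 5.16). The endothelial cluster 8 of TA, led by Fabp4 and Aqp1, had 6 responders among 13 cells. Among clusters of 50 or more cells, the Fos-led one had the lowest share in each muscle, with an interval that overlapped those of other low clusters.

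**Figure D5:**
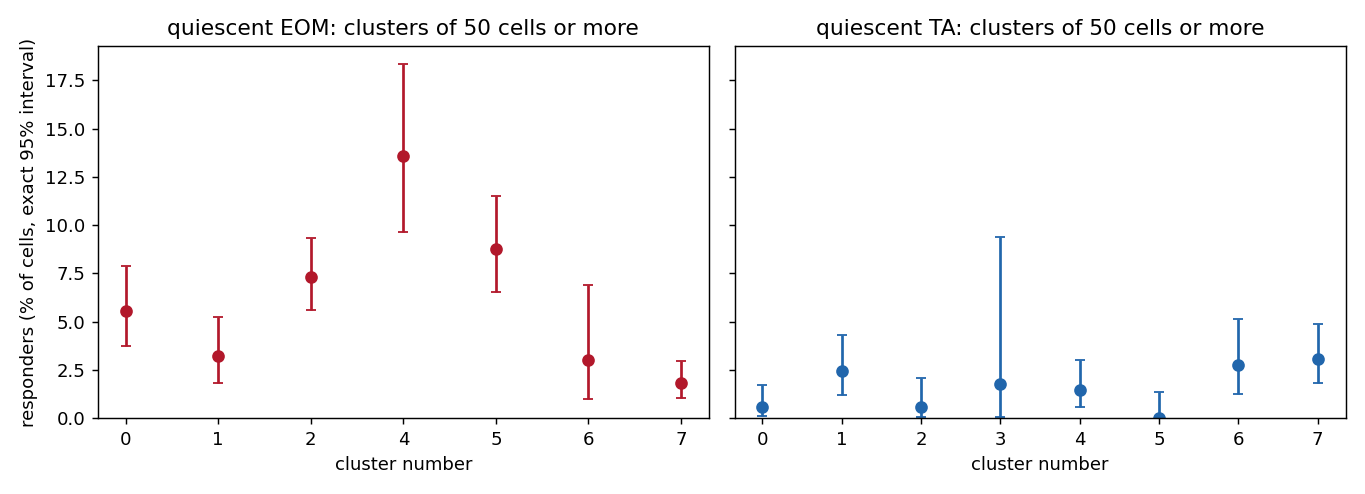
The percent of responders with its exact 95% interval in each cluster of 50 or more cells of quiescent EOM (left) and quiescent TA (right), by cluster number. EOM clusters range between 1.83% in cluster 7, led by Fos, and 13.6% in cluster 4, led by Ccl11, and the lowest TA point is 0% in cluster 5, led by Fos.

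Responders of both muscles were then set side by side over unmarked cells. Isg15 was at 628 CPM in EOM responders and 452 CPM in TA responders (ratio 1.39, 1.15 to 1.70), close to the ratio of 1.36 between EOM others and TA others. Ifitm3 was at 4006 CPM in EOM responders and 4083 CPM in TA responders. Cxcl10 was at 1673 CPM in EOM responders and 108 CPM in TA responders (15.4, 10.8 to 22.9), and at 273 CPM in EOM others and 47.8 CPM in TA others (5.71, 5.27 to 6.19). Irf1 was 6.19-fold higher in EOM responders than in TA responders and 4.30-fold higher in EOM others than in TA others. Iigp1 was at 413 CPM in EOM responders and 734 CPM in TA responders (0.563, 0.476 to 0.667), and Ifih1 at 56.8 and 170 CPM (0.334). Myod1 was at 100 CPM in EOM responders and 900 CPM in TA responders (0.111, 0.0881 to 0.140), with 0.128 between the others.

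The muscle difference of the whole libraries did not rest on the responders alone. With all unmarked cells, EOM over TA was 1.81 for Isg15, 1.49 for Oasl2, 2.19 for Gbp2 and 6.86 for Cxcl10. Without the responders it was 1.48 for Isg15, 1.24 for Oasl2, 1.93 for Gbp2 and 5.44 for Cxcl10. Irf1 was 4.23-fold higher in EOM with the responders and 4.20-fold higher without them. These ratios compare 1 library with another.

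ISRE spellings were frequent in the promoters of the genes high in responders. Of the 42 genes higher in both muscles, 33 had an entry in the RefSeq promoter table, in a window of 250 bases before to 50 after the start site. An ISRE match as spelled above was in 18 of the 33 (54.5%), against 3.99% of 27025 genes and 3.44% of 32851 promoters in the table. A GAS match, spelled TTCNNNGAA on either strand, was in 8 of the 33 (24.2%), against 9.55% of all genes, and 6 of the 33 had both. The matches shared bases in 2 promoters. Of the 4 Ifit genes, 3 had an ISRE match, and Ifit2 had none. B2m, Bst2, Gbp3, Gbp7, H2-T23, Igtp, Irgm1, Irgm2 and Rsad2 were among those with a match upstream of the start, while Oasl2, Cd274, Irf7, Tap1 and Xaf1 had none in the window. Ccl7, F830016B08Rik, Iigp1, Ly6e, Parp14, Parp9, Rtp4, Tor3a and Zbp1 had no entry.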

How the data were processed

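Per the submitters' processing notes, the authors made the deposited UMI counts with Cell Ranger 3.0.2 on mm10. The annotation release was not given in the sources used here. From these counts, UMIs were summed over the cells of a class and divided by the class total to give CPM. A ratio is CPM in responders over CPM in others with an exact 95% interval of a ratio of Poisson rates, and log2 ratios add 1 CPM. A class at 0 was set at 3 counts for the 2-fold call. Shares have exact Clopper-Pearson intervals, and the limit for a share of 0 is 3 cells of the total.

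The depth was 19774384 UMIs in quiescent EOM, 22253751 in quiescent TA, 144188957 in activated EOM and 118537060 in activated TA. Passing cells had a median of 4719, 5106, 21699 and 23659 UMIs in that order. Intervals cover counting error only. The ratio script was tested on simulated data.

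Doublets were left in. Removing the highest Scrublet scores by rank, 0.8% per 1000 barcodes, was an alternative. Clusters came from scanpy 1.11.5 with Leiden (igraph 0.11.9, 2000 variable genes after removal of the interferon lists and the 4 Ifit genes, 30 components, 15 neighbours, resolution 1). Scaling factors came from edgeR 4.0.16, which was used for no test. Gene positions are from GENCODE vM21.

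The members and gene lists were chosen with earlier results of these data known. Named genes were the markers and Ifit genes, the 12 largest and 8 smallest ratios per muscle, interferon-list genes at 50 CPM or more in responders, and 8 stem cell and state genes. Sex-linked genes, haemoglobins, mitochondrial, ribosomal and unnamed genes were left out of the ranking, exceptions are stated, and some items are not reported here.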

Additional observations from a re-analysis of the deposited data

How the results depend on the processing

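The limits are those of 1 library per muscle and of few cells: 56 TA responders against 208 in EOM. At 2 or more Ifit UMIs the shares were 8.05% in EOM and 2.85% in TA, and 2 EOM genes and 18 TA genes were lower. At 5 or more they were 3.23% and 1.03%, with 323 TA genes higher, and 9 EOM and 139 TA genes lower. Thinning to 2000 UMIs gave 2.52% and 0.762%. Cells with 4000 or more UMIs gave 3 lower EOM genes, scaling factors 84 lower TA genes, and unmarked cells, an alternative added after seeing the data, 92 higher TA genes. With genes at 20 CPM or more, 89 EOM and 504 TA genes were higher and 22 and 206 lower. At 200 CPM, 11 and 31 were higher, 0 and 3 lower, and 7 higher in both muscles. The ratio of the EOM share to the TA share lay between 2.83 and 3.47 over these thresholds, filters on cells and thinning at 3 or more Ifit UMIs, and more widely between depth classes.

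Among log2 ratios of genes 2-fold apart, directions turned for Dcn in EOM, to -0.96 at 5 or more Ifit UMIs, -0.37 in unmarked cells and -0.91 without its top cell, and for Cxcl5 in TA, to -1.07 without its top cell. Among unmarked TA cells the log2 ratios turned for Apold1 (-0.67), Ctla2a (-0.18), Fabp4 (-2.44), Flt1 (-0.18), Fmo2 (-0.092), Gimap6 (-0.34), Gpihbp1 (-0.34), Irf1 (-0.46), Kdr (-0.26), Sult1a1 (-0.34) and Tm4sf1 (-0.66). By construction, leaving out marked or top cells drops the UMIs that those cells held, and the cause of the other turn was not tested. Of 2368 log2 ratios of named genes over all alternatives, 2272 kept their sign and 96 changed it, 15 of them for genes 2-fold apart. No paired analysis was possible because the labels give no replicate numbers and each group has 1 library.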
